A study of Bos taurus with 6 samples.

Results

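IGF2, DLK (the name under which the table lists DLK1), PEG10, bta-mir-433 and MAGED1 are 5 genes that are known from fetal growth, from imprinted regions or from the family of an imprinted gene. They were taken from the authors' deposited table by gene name, and each has 1 row, so that they make up 5 of its 5288 transcripts, which come from 5237 gene loci. The table compares longissimus muscle of Qinchuan cattle, a Chinese beef breed, between 3 embryos, 90 days old when counted from fertilization, and 3 adults of 24 months. No treatment or genetic change was applied, and the labels give no sex. For each transcript the table holds 1 embryonic and 1 adult value in FPKM, a fragment count per unit of exon length and of library size, so that the spread between the 3 animals of a stage is not known and no test between the stages was possible. It lists only transcripts that the authors called different between the stages, and in all 5288 the stages differ by at least 2-fold or 1 of them is at 0. A gene with no row under its name in the table used here was not analysed, and nothing follows from this about its level.

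An imprinted gene is expressed mainly from the copy inherited from 1 parent. Several genes expressed from the paternal copy favour growth before birth, and their expression in muscle is known to decline after it. IGF2 encodes insulin-like growth factor 2, a secreted growth factor of fetal tissues. DLK1 encodes a membrane protein related to the Notch ligands, and its imprinted domain is known for the callipyge muscle overgrowth of sheep. PEG10 is derived from a retrotransposon and is needed for placental development in the mouse. All of these are expressed from the paternal copy, whereas the microRNAs of the DLK1 domain, miR-433 among them, come from the maternal copy in mouse and sheep. MAGED1 is an X-linked gene of the MAGE family, to which the imprinted genes NDN and MAGEL2 also belong, and is itself not a classical imprinted gene. The FPKM values do not separate the parental copies, so imprinting itself was not measured.

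All 5 genes had a higher level in the embryo than in the adult. Of all listed transcripts, 9.68% were higher in the embryo (512 of 5288) and 90.3% higher in the adult (4776 of 5288). The genes were chosen with earlier results of these data known, so their common direction is a description. The median of their log2 fold changes (adult over embryo) was -5.58, beside 2.71 over all transcripts above 0 in both stages and -2.12 over the 482 of them that were higher in the embryo. Added together, the 5 genes had an FPKM of 1165 in embryonic and 33.1 in adult muscle, which was 1.65% and 0.00491% of the FPKM total of the listed transcripts. That total was itself 70749.5 in the embryo and 674415.7 in the adult, so the 2 shares also carry the direction of most listed transcripts.

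**Figure D1:**
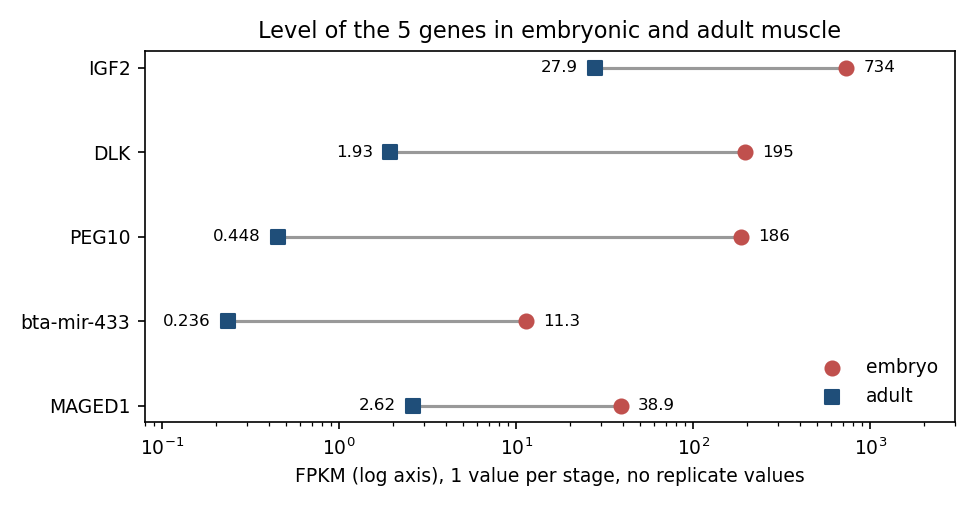
Authors' FPKM of the 5 genes on a log axis, with the embryonic value as a circle and the adult value as a square, and no error bars because the table has 1 value per stage. Each gene lies to the right in the embryo, from 11.3 for bta-mir-433 to 734 for IGF2, and the adult values run from 0.236 to 27.9.

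IGF2 was the most abundant of the 5 genes at both stages. The IGF2 row (ENSBTAG00000013066, chromosome 29, 50046625 to 50065231 of bosTau7) had an FPKM of 734 in embryonic and 27.9 in adult muscle. The embryonic level was 26.3-fold the adult one, a log2 fold change of -4.72. No other transcript of the 512 higher in the embryo had a larger embryonic FPKM, and over the whole table IGF2 held rank 7 at that stage. In the adult it held rank 1507. Its adult level was 14.4 times that of DLK.

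DLK, which restrains the differentiation of precursor cells such as preadipocytes, had almost the same embryonic level as PEG10 but a higher adult level. The DLK row (ENSBTAG00000037899, chromosome 21, 67274799 to 67283089) had an FPKM of 195 in embryonic and 1.93 in adult muscle, 101-fold apart, with a log2 fold change of -6.66. The PEG10 row (ENSBTAG00000038093, chromosome 4, 11911911 to 11924754) had 186 in embryonic and 0.448 in adult muscle, 415-fold apart, with a log2 fold change of -8.70. In the embryo the DLK level was 1.05 times that of PEG10, and in the adult it was 4.32 times. Whether these levels differ beyond the spread between animals cannot be said from single values. PEG10 had the second largest ratio of embryo to adult among the 482 transcripts above 0 in both stages, after PRKDC, a DNA repair kinase whose listed transcript had an FPKM of only 0.527 in the embryo. Because the adult level of PEG10 is below 1, the size of its ratio depends on a low value, and with a pseudocount of 1 its log2 fold change was -7.01.

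MAGED1, an adaptor protein that binds the neurotrophin receptor NGFR, had the smallest change of the 5 without a pseudocount. With a pseudocount of 1 its log2 fold change was -3.46 and that of bta-mir-433 was -3.31. The MAGED1 row (ENSBTAG00000008733, chromosome X, 95708019 to 95715152) had an FPKM of 38.9 in embryonic and 2.62 in adult muscle, 14.8-fold apart, with a log2 fold change of -3.89. In the embryo its level was below those of IGF2, DLK and PEG10. In the adult it was second to IGF2 and 1.36 times that of DLK. The order of the genes therefore differed between the stages, from IGF2, DLK, PEG10, MAGED1 and bta-mir-433 in the embryo to IGF2, MAGED1, DLK, PEG10 and bta-mir-433 in the adult. FPKM is scaled to exon length, which allows a rough comparison of levels between genes, but for bta-mir-433 the RNA behind the value is not known. None of the steps in this order can be set against a spread between animals.

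The row named bta-mir-433 (ENSBTAG00000030004, chromosome 21, 67427513 to 67528311) had the lowest level at both stages, with an FPKM of 11.3 in embryonic and 0.236 in adult muscle. The ratio was 47.9 and the log2 fold change -5.58. With a pseudocount of 1 the log2 fold change was -3.31. Its interval is 100799 bp long, against 8291 bp for DLK and a median of 23830 bp over the table, and is far longer than a microRNA hairpin. The libraries were made from fragmented, rRNA-depleted RNA, without a separate library for small RNAs. The row carries the name of the precursor, but which RNA of this long interval gave the value is not shown by the table, and the mature microRNA was not measured. In the RefSeq annotation of another assembly (ARS-UCD2.0), MIR433 lies within RTL1, a retrotransposon-derived gene of the same domain, and MEG3, a maternally expressed long non-coding RNA, lies between DLK1 and MIR433. That annotation places 59 microRNA genes between DLK1 and DIO3, and 1 of them has a row in the table. MEG3, MEG8, RTL1 and DIO3 have no row under these names.

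**Figure D2:**
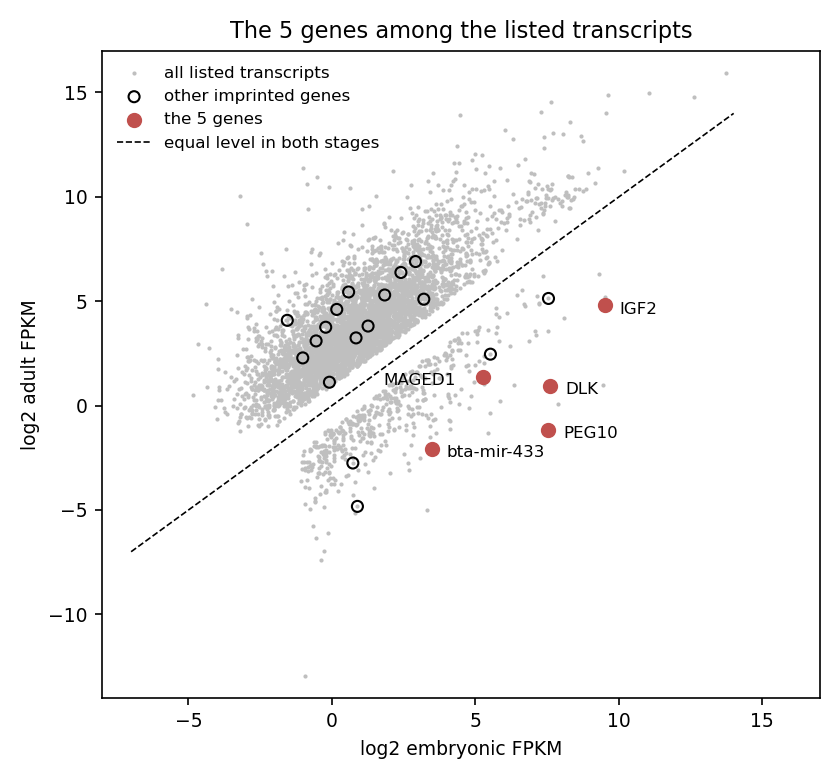
Log2 FPKM in the embryo (x axis) against log2 FPKM in the adult (y axis) for every listed transcript above 0 in both stages, in grey, with the 5 genes as filled red points and the other listed imprinted genes as open circles. The 5 genes lie below the line of equal level, while 13 of the 17 other imprinted genes lie above it (9 of 17 when the stages are centred on the median of all transcripts), and the empty band along the line is the 2-fold minimum of the table.

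The neighbourhood of DLK on chromosome 21 was, as deposited, the only 1 of the 4 regions examined in which every listed transcript within 1 Mb of the gene was higher in the embryo, with just 3 such transcripts. Among these 3 is bta-mir-433, itself a gene chosen with earlier results known, so its direction adds nothing here. The gap between the intervals of DLK and bta-mir-433 was 144423 bp. On the other side of DLK, at a gap of 165975 bp, lay BEGAIN, a synaptic protein gene that is expressed from the paternal copy in sheep. BEGAIN had an FPKM of 1.85 in embryonic and 0.0352 in adult muscle, with a log2 fold change of -5.72. These 3 loci follow each other in the table. Their log2 fold changes lay between -6.66 and -5.58, and their embryonic levels ranged from 1.85 to 195. The adult levels of BEGAIN and bta-mir-433 are below 1, so the size of their ratios, and the closeness of the 3, depends on low values. With a pseudocount of 1 the log2 fold change was -6.06 for DLK and -3.31 for bta-mir-433. HHIPL1, at a gap of 956375 bp, had an FPKM of 1.03 in embryonic and 0.392 in adult muscle. On the far side of bta-mir-433, PPP2R5C, a regulatory subunit of protein phosphatase 2A, had 2.23 in embryonic and 14.1 in adult muscle, at a gap of 806563 bp, and was higher in the embryo under the 3 scalings described with the IGF2 neighbours. On the whole of chromosome 21, 19 of 138 listed transcripts (13.8%) were higher in the embryo.

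The listed neighbours of IGF2 mostly had the opposite direction as deposited, but not after the stages were rescaled. Of 20 transcripts within 1 Mb, 18 were higher in the adult and 2 were higher in the embryo. On chromosome 29 as a whole 12 of 135 (8.89%) were higher in the embryo. The nearest was MRPL23, a mitochondrial ribosomal protein, at a gap of 117288 bp, with an FPKM of 11.7 in embryonic and 53.3 in adult muscle. TNNT3, the fast skeletal troponin T, followed with 1 transcript at 20.4 in embryonic and 5632 in adult muscle, and with another that is listed at 0 in the embryo and reached 4667 in the adult. TNNI2, the fast skeletal troponin I, lay at a gap of 219816 bp. Its embryonic FPKM of 746 was close to that of IGF2, but its adult FPKM was 16670.0, so that these neighbours had similar levels in the embryo and stood far apart in the adult. CATD (cathepsin D) had 28.04 and 127, and AP2A2, an adaptor of clathrin vesicles, 8.47 and 23.3. H19, the maternally expressed RNA that RefSeq places between IGF2 and MRPL23, has no row. The 2 neighbours higher in the embryo were CDKN1C, a maternally expressed inhibitor of the cell cycle, with an FPKM of 187 in embryonic and 35.1 in adult muscle, and SLC25A22, a mitochondrial glutamate carrier, with 0.867 and 0.186. Both lie beyond the 6 nearest transcripts and were named after their values were seen. Centred on the median of all listed transcripts, 12 of the 20 neighbours were higher in the embryo, with both stages set to the same FPKM total 14, and centred on housekeeping genes 16, beside 50.2%, 64.9% and 78.3% of all listed transcripts, whereas TNNT3 and TNNI2 stayed higher in the adult under each.

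Around PEG10, 1 of 8 listed neighbours was higher in the embryo, and 4, 4 and 5 were under the same 3 scalings. On chromosome 4 as a whole 14 of 165 (8.48%) were higher in the embryo as deposited. The neighbour higher in the embryo as deposited was the nearest, COL1A2, a chain of type I collagen, at a gap of 250335 bp, with an FPKM of 630.2 in embryonic and 78.7 in adult muscle. On the other side lay the paraoxonase genes PON3 (0.340 and 16.98) and PON2 (2.39 and 14.04), followed by ASB4, a substrate adaptor of ubiquitin ligases (0.860 and 13.5), each with the embryonic value first. PON3, PON2, ASB4 and a further neighbour, TFPI2, are also counted below among the other imprinted genes higher in the adult as deposited. BET1, a vesicle transport protein, had 1.29 in embryonic and 5.84 in adult muscle. PDK4, which inhibits pyruvate dehydrogenase, had 0.925 in embryonic and 1414 in adult muscle, a log2 fold change of 10.58 and the largest among the listed neighbours of PEG10. SGCE, which shares a promoter region with PEG10 and is imprinted with it, has no row. MAGED1 had 3 listed neighbours, the chromatin genes SMCX (3.03 and 8.42) and SMC1A (1.51 and 9.56) and the ubiquitin ligase HUWE1 (2.64 and 9.95), all higher in the adult as deposited and all higher in the embryo under each of the 3 scalings. On chromosome X, 22 of 180 listed transcripts (12.2%) were higher in the embryo. Loci in the table can overlap, since 274 transcripts (5.18%) have the same interval as another locus, but none of the 5 genes does.

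**Figure D3:**
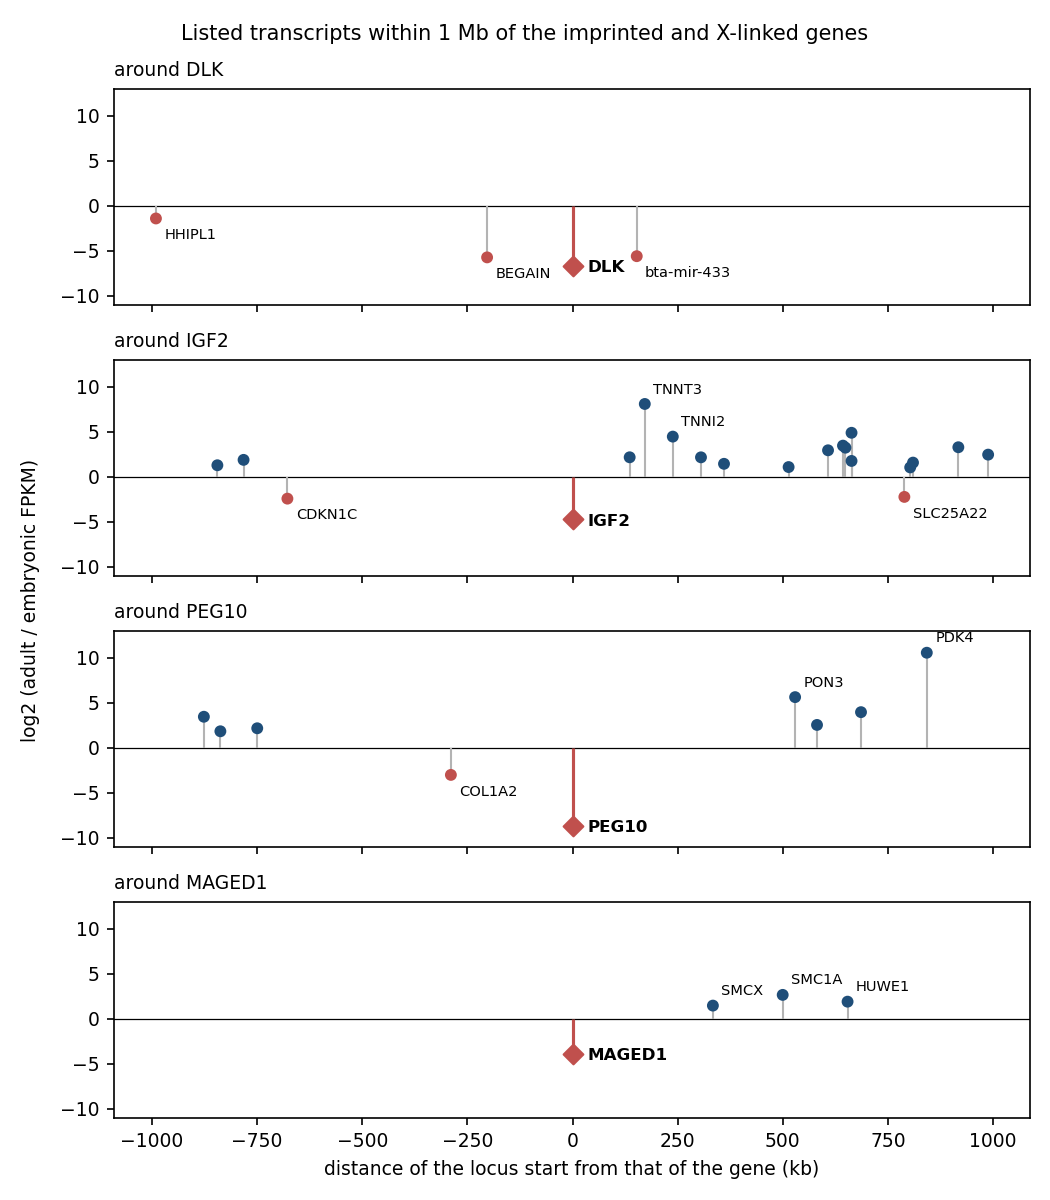
Log2 ratio of adult to embryonic FPKM (y axis) against the distance of the start of each locus from that of the named gene in kb (x axis), with 1 panel per region, diamonds for DLK, IGF2, PEG10 and MAGED1 and circles for the other listed transcripts within 1 Mb. Red marks a higher embryonic and blue a higher adult level. The 3 neighbours of DLK, among them the chosen gene bta-mir-433, point down with it. As deposited, 18 of 20 around IGF2, 7 of 8 around PEG10 and 3 of 3 around MAGED1 were higher in the adult. These counts fall to 8, 4 and 0 when centred on the median of all transcripts, and 1 TNNT3 transcript listed at 0 in the embryo has no ratio and is not drawn.

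Imprinted genes as a group did not share the direction of the 5 as deposited. Of 86 further symbols of genes that are imprinted in cattle, human or mouse in at least some tissue, 17 have a row, of which 4 were higher in the embryo and 13 in the adult (23.5% higher in the embryo, beside 9.68% over the table). Their median log2 fold change was 3.30. Besides BEGAIN, the largest differences toward the embryo were those of MAGEL2, a ubiquitin ligase regulator and a relative of MAGED1, with an FPKM of 1.66 in embryonic and 0.149 in adult muscle, and of MEST, a paternally expressed gene of mesoderm, with 46.0 and 5.52. In the other direction PON3 was followed by SNRPN, a splicing protein gene of the Prader-Willi region in human, with 1.495 in embryonic and 43.5 in adult muscle, and by GRB10, an adaptor that dampens insulin and IGF signalling, with 1.12 and 24.4. MEST and COPG2, a coat protein gene beside it, have the same interval in the table and, as deposited only, opposite directions, with 1.79 in embryonic and 9.47 in adult muscle for COPG2, which is higher in the embryo under the 3 scalings. The second cDNA strand was removed from the libraries, but whether strand was used in the counting is not given in the sources used here, so reads of this pair may not be fully separated. The direction of this group depends on the scaling between the stages. Centred on the median of all listed transcripts, or with both stages set to the same FPKM total, 8 of the 17 were higher in the embryo, and centred on the housekeeping genes 11 of 17. Of all listed transcripts, 50.2%, 64.9% and 78.3% were higher in the embryo under these scalings, so the shift is that of the whole table. Each of these scalings lowers every log2 fold change, so the direction of the 5 genes could not turn under them.

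In the IGF axis around IGF2, 8 of 30 symbols have a row, and 6 of them were higher in the embryo (75.0%, beside 9.68% over the table). The median log2 fold change was -1.84 over the 7 with a ratio. Among the binding proteins, which hold IGFs in the extracellular space, IGFBP2 had an FPKM of 10.6 in embryonic and 0.507 in adult muscle, and IGFBP4 had 25.5 and 5.42. IGFBP6, which prefers IGF2 over IGF1, went the other way with 34.4 in embryonic and 73.7 in adult muscle. So did the related protein IGFBP7, with 38.2 and 162. The IGFBP7 transcript has the same interval as 1 other locus, so its reads may not be fully separated. IGFALS, which stabilizes IGF complexes in the circulation, had 1.21 in embryonic and 0.254 in adult muscle. IGF2BP2, an RNA-binding protein that binds IGF2 mRNA, had 2.93 and 0.818, and STC2, an inhibitor of the proteases that cleave IGF-binding proteins, had 0.998 and 0.392. HMGA2, a chromatin protein that promotes IGF2BP2 expression in the mouse, had 0.870 in the embryo and is listed at 0 in the adult. The receptors IGF1R, IGF2R and INSR and the ligand IGF1 have no row. In this list the 2 genes higher in the adult also had the highest adult levels, and their direction turned under all 3 scalings tried. With an FPKM above 1 required at both stages, 1 of the 3 remaining transcripts was higher in the embryo, beside 5.62% of all transcripts.

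For the Notch pathway, which DLK1 is known to inhibit, 6 of 25 symbols have a row. Of these, 4 were higher in the embryo (66.7%, beside 9.68% over the table). The receptor NOTCH1 had an FPKM of 6.44 in embryonic and 0.921 in adult muscle. The target gene HEYL (6.55 and 1.78) and HES6, a gene of the HES family (4.92 and 1.11), were also higher in the embryo. So was LFNG, a glycosyltransferase that modifies Notch (6.34 and 2.28). HES1, another target, had 1.005 in embryonic and 5.51 in adult muscle, and the protease ADAM10 had 0.696 and 5.62. Their median log2 fold change was -1.68. HES1 turned under all 3 scalings and ADAM10 under 2 of them.

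Of 20 symbols of the MAGE family and of MAGED1 partners, 6 have a row, with a median log2 fold change of -2.70. Of these, 4 were higher in the embryo (66.7%, beside 9.68% over the table). The partners NGFR (5.76 in embryonic and 0.203 in adult muscle) and ROR2, a Wnt receptor (2.12 and 0.192), were higher in the embryo, as were MAGEL2 and MAGEF1 (3.02 and 0.792). NDNL2 (10.5 and 21.3) and MAGEH1 (1.66 and 4.80) were higher in the adult, but in the embryo under each scaling. Of 17 genes derived from similar retrotransposons as PEG10, PNMAL1 alone has a row, with 1.06 in embryonic and 0.285 in adult muscle.

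**Figure D4:**
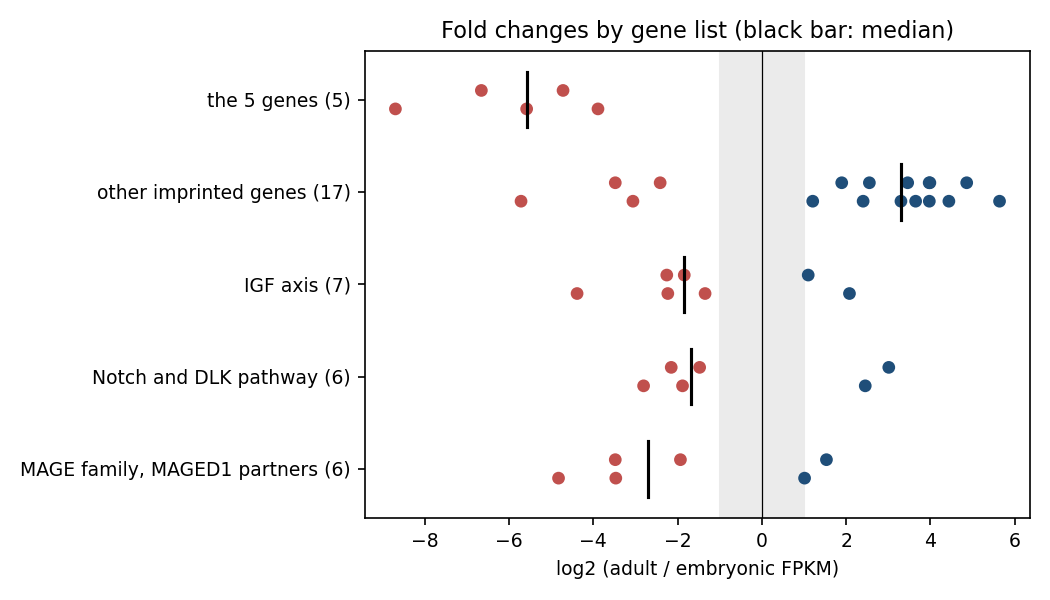
Log2 ratio of adult to embryonic FPKM for each listed gene with a ratio (x axis), in rows for the 5 genes and 4 gene lists, with the number of points in brackets, a black bar at the median and the range below the 2-fold minimum shaded. The medians were -5.58 for the 5 genes, 3.30 for the other imprinted genes (below 0 only when centred on housekeeping genes), -1.84 for the IGF axis, -1.68 for the Notch pathway and -2.70 for the MAGE list, and HMGA2, listed at 0 in the adult, is not drawn.

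The transcripts whose levels were most like those of the 5 genes included contractile, matrix and X-linked growth genes. Likeness was measured as the distance in the plane of log2 embryonic and log2 adult FPKM, that is, over 2 values per transcript. The 5 genes themselves, transcripts without a gene symbol and transcripts at 0 in a stage were left out of this search. Nearest to IGF2 was ACTC1, the cardiac actin that is also used by embryonic skeletal muscle, at a distance of 0.40, with an FPKM of 724 in embryonic and 36.7 in adult muscle. COL1A2 (1.51) and HIST1H3A, a histone H3 gene whose reads may be shared with its near copies (1.56), came next. Nearest to DLK were MYL4, a myosin light chain of embryonic muscle and of the atrium (0.92), COL5A2, a fibrillar collagen (1.254), and MYHC-EMBRYONIC, the embryonic myosin heavy chain (1.85). MYL4 was also nearest to PEG10 (1.27), and TNNT2, the cardiac and embryonic troponin T, was among the nearest 3 (2.16). PEG10 thus had no close counterpart among the transcripts searched. For bta-mir-433 the nearest were CSDC2, an RNA-binding protein (0.57), TMEM8C, the myoblast fusion protein myomaker (0.61), and CRABP1, a retinoic acid binding protein (0.76). MAGED1 was closest to NRK, an X-linked kinase whose loss enlarges the placenta in the mouse (0.18), with an FPKM of 42.4 in embryonic and 2.88 in adult muscle. GPC3, an X-linked glypican whose loss causes an overgrowth syndrome in human, followed (0.43), with 30.9 and 2.17, and then FSCN1, an actin-bundling protein (0.58).

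Markers of several cell types have rows, and every listed transcript differs between the stages. Of all listed transcripts, 90.3% were higher in the adult and 9.68% in the embryo. A marker count toward the adult is therefore near the share of the whole table. Of 14 skeletal muscle markers, the 7 found under their symbols were higher in the adult. Their summed FPKM was 4231 in embryonic and 95090.5 in adult muscle, so that both stages carry the labelled tissue. The marker MYH3 was not among these 7, since the embryonic myosin heavy chain is listed as MYHC-EMBRYONIC. That transcript went the other way, with an FPKM of 703 in embryonic and 1.97 in adult muscle. Of 14 markers of fibroblasts and mesenchyme, 7 have rows, with 9 transcripts. Of these, 8 were higher in the embryo as deposited and all 9 under the 3 scalings. Their summed FPKM was 926 in embryonic and 113 in adult muscle, and 1 FN1 transcript is listed at 0 in the adult. The 4 listed of 6 cartilage markers (summed FPKM 19.8 and 0.682) and the 3 listed of 7 Schwann cell and neural crest markers (18.9 and 0.689) were all higher in the embryo. NGFR is in both this last list and that of the MAGED1 partners. Of 9 markers of myoblasts and their precursors, 3 have rows, TMEM8C (8.33 and 0.176), MYOG (19.01 and 48.6) and MYF6 (8.58 and 325). MYOG was higher in the embryo under the 3 scalings, whereas MYF6 stayed higher in the adult. Those of endothelium (3 of 6, summed FPKM 10.3 and 35.9) and adipocytes (2 of 7, 1.53 and 128) were higher in the adult, those of endothelium only as deposited and not under the 3 scalings, and none of 9 for blood and macrophages has a row. In such bulk samples a smaller share of a cell type cannot be told apart from less RNA per cell, and the part of these cell types in the levels of the 5 genes was not tested. In addition, all 14 listed of 21 housekeeping genes were higher in the adult, with a median log2 fold change of 3.90.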

How the data were processed

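RNA-seq data of longissimus muscle from 3 embryonic and 3 adult Qinchuan cattle were used. Per the labels and the study's methods, the authors depleted rRNA, trimmed reads with Trim Galore, aligned them to bosTau7 with TopHat2 2.0.14, and assembled and quantified transcripts with Cufflinks. The FPKM values are those deposited by the authors, 1 per stage, in a table of the transcripts they called different. Its columns of fold changes, p-values and q-values, and 3 tables of GO enrichment, hold the authors' own comparisons and were not used. The fragments behind each FPKM are not in the table, so the depth behind a value is unknown. The paper gives read totals per sample and reports a much smaller exonic and larger intronic share of mapped reads in embryos than in adults. The effect of this difference on the FPKM ratios was not tested.

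Log2 ratios of adult to embryonic FPKM were computed without a pseudocount using Python 3.11.15 and pandas 2.3.3, after the functions were tested on simulated data. Positions are the intervals of the table, and a gap is the number of bases between 2 intervals. Gene order came from RefSeq (ARS-UCD2.0), in which all 5 genes matched by name, and none of its coordinates were used. No sequences are given. The text names all 5 genes, the listed genes of each pathway (3 in each direction for lists of over 8 rows), up to 6 neighbours within 1 Mb and the 3 transcripts of most similar level for each, of which 1 is not reported here. The 5 genes and the lists were chosen with earlier results of these data known. Alternatives were 3 scalings between the stages, pseudocounts of 1 and 0.1, and minimum FPKM values of 2 in the higher stage or 1 in both.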

Additional observations from a re-analysis of the deposited data

How the results depend on the processing

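No paired analysis was possible because the table has 1 column per stage, and for the same reason no animal could be left out. None of the 7 alternatives could turn the direction of the 5 genes, since pseudocounts and minimum values keep a sign and the scalings lower every log2 fold change by 2.71 (centred on all transcripts), 3.25 (same FPKM total) or 3.90 (centred on housekeeping genes). They put the median of the 5 genes at -8.29, -8.83 and -9.48, and 8, 8 and 11 of the 17 other imprinted genes higher in the embryo, where 50.2%, 64.9% and 78.3% of all transcripts then were. Under each scaling all 8 listed genes of the IGF axis were higher in the embryo. These shifts were taken from called transcripts, which were mostly higher in the adult. A pseudocount of 1 or 0.1 gave medians of -4.67 and -5.08. Requiring more than 2 FPKM at the higher stage, 2 of 15 imprinted genes and 3 of 5 of the IGF axis were higher in the embryo. Of all transcripts, 6.48% then were. Requiring more than 1 FPKM at both stages, 3 of the 5 genes remained (IGF2, DLK and MAGED1, median -4.72), since these minimums leave fewer transcripts. With that minimum, 2 of 10 imprinted genes and 1 of 3 of the IGF axis were higher in the embryo, beside 5.62% of all transcripts. The table gives no depth, so low adult values such as those of PEG10 and bta-mir-433 have no known precision.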

Other observations

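The genes that set or keep imprints were looked up after the values had been seen. Of 17 such symbols, among them those of the DNA methyltransferases, EED alone has a row. EED, a subunit of the Polycomb complex that represses some imprinted genes in the mouse, had an FPKM of 0.958 in embryonic and 20.9 in adult muscle. Apart from bta-mir-433, the table names 2 microRNA loci, and both were higher in the adult as deposited and in the embryo under the 3 scalings, bta-mir-6517 with an FPKM of 0.561 in embryonic and 2.38 in adult muscle, and bta-mir-6518 with 1.22 and 2.96.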
